A study of Rattus norvegicus with 12 samples.

Results

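The glycolysis and hypoxia target genes were followed as a list of 37 symbols, chosen by name: 17 glycolytic enzymes, 4 glucose and lactate transporters, 3 regulators of glycolytic flux, 11 genes of the hypoxia-inducible factor (HIF) pathway and its targets, and 2 genes of glycogen synthesis. Of these, 36 were listed in both count tables, and Egln1 was not analysed here. Pkm and Pfkfb4 each had a second entry under another gene identifier, so that 38 entries were followed among 18058 genes listed in both tables. All 38 passed the filter on low values in each of the 3 tests.

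RNA came from the rat line UMR-106, osteoblast-like cells derived from an osteosarcoma. Genotype (control or NFAT5KO) was crossed with the NaCl of the medium (-NaCl, 20 mM less, or +NaCl, 20 mM more, for 24 h), with 3 libraries in each of the 4 groups. The media thus differed by 40 mM, and calcitriol was present in every group. NFAT5 is the transcription factor of the response to hypertonicity, and the NFAT5KO line was a single clone obtained after Cas9 cutting, so the lost gene and other properties of that clone cannot be told apart. The groups of one genotype were normalized in a table of their own, and levels were therefore compared between genotypes without a test.

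Glycolysis breaks glucose down to pyruvate in the cytosol, and lactate dehydrogenase turns pyruvate into lactate, which leaves the cell through monocarboxylate transporters. Most steps have several isoenzymes encoded by separate genes. Under low oxygen the HIF-1 alpha subunit escapes degradation, and the HIF complex raises the transcription of many glycolytic genes together with Vegfa, Bnip3, Car9 and other targets. Osteoblasts are known for a high rate of glycolysis with release of lactate even when oxygen is present.

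Depth ranged from 14267946 to 22798804 recovered reads per library. Nfat5 itself gave 159 to 174 RPM (recovered reads scaled to the same library total) in the -NaCl and 247 to 267 in the +NaCl libraries of control cells, against 43.3 to 57.0 and 77.1 to 88.5 in NFAT5KO cells, so reads of the gene were reduced but not absent. The paper reported a complete knockout by immunoblot, with Nfat5 mRNA not detected by qRT-PCR. Reads counted per gene do not show whether protein was made. Osteoblast markers were present in every group, 7 of 8 at a mean of at least 10 normalized counts in control cells and 8 of 8 in NFAT5KO cells, with Bglap, the osteocalcin gene, at means of only 4.4 to 11.7. Summed, they gave 56830 to 60120 normalized counts in the -NaCl libraries of control cells and 96220 to 102700 in the +NaCl libraries, against 58500 to 69070 and 76990 to 82430 in NFAT5KO cells. The osteoblast markers thus moved with the medium, and their part in the results below was not tested. Markers of leukocytes summed to at most 17.6, of endothelial cells to at most 26.2 and of adipocytes to at most 30.0 normalized counts, while those of chondrocytes (402 to 692, mostly Sox9) and muscle (202 to 368, mostly Actn2) were higher. The NFAT5KO -NaCl library of replicate 1 stood apart on the first principal component within its genotype, at -5.63 against -22.9 and -19.8 for the other two. Without it, 14 instead of 13 entries passed the test in NFAT5KO cells, and the count for the difference between genotypes remained at 3.

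The promoters of 5 members that the comparisons turned on are shown first. Hk1 and Eno1 differed between the genotypes in their response to NaCl, while Hk2, Ldha and Slc2a1 were lower with +NaCl in both. The windows were taken from RefSeq on build GRCr8, from 250 bases before to 50 bases after the annotated start of each gene, and are written 5′ to 3′ along the strand of the gene. Capitals mark the letters ACGTG or GCGTG, cores of the hypoxia response element that HIF binds, and TGGAAA, the core of the tonicity element that NFAT5 binds. Both strands were searched, so a match can also stand as its reverse complement, and the palindrome CACGTG counts on each strand.
Hk1, chr20:30874765-30875064, minus strand: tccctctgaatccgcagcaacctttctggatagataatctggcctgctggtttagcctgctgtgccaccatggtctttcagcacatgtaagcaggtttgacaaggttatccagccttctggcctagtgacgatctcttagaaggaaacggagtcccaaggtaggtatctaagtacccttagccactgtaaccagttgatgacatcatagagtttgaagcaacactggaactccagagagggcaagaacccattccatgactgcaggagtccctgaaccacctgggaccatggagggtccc
Eno1, chr5:166002617-166002916, plus strand: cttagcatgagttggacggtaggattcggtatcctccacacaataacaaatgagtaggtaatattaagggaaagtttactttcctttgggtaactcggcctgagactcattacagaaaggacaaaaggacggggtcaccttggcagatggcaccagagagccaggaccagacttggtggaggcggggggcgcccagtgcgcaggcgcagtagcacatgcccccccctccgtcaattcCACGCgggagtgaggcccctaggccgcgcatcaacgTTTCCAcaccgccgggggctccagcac
Hk2, chr4:116841226-116841525, minus strand: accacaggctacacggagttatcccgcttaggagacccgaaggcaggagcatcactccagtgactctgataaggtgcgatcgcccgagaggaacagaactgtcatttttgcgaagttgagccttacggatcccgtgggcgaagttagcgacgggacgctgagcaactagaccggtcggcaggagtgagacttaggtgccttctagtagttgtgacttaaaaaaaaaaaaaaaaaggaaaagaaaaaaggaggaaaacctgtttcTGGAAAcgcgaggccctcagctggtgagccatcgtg
Ldha, chr1:106507842-106508141, plus strand: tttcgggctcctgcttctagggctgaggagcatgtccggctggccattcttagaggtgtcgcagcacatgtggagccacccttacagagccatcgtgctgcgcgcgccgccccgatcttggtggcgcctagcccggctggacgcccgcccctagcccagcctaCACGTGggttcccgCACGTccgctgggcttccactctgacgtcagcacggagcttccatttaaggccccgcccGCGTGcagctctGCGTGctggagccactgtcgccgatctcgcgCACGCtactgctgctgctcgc
Slc2a1, chr5:138002272-138002571, plus strand: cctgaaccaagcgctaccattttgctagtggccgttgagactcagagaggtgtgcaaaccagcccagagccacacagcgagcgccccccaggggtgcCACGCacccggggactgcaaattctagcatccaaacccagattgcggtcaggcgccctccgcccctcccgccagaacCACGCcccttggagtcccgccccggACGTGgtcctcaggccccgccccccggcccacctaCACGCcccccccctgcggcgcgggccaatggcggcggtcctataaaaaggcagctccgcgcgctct
The Ldha window held 6 matches to the hypoxia cores, among them the palindrome that starts 87 bases before the annotated start, and the Slc2a1 window held 4. The Eno1 window held 1 hypoxia core, 13 bases before the start, and 1 tonicity core, 24 bases after it. The Hk2 window held only a tonicity core, 15 bases after the start, and the Hk1 window held none of these letters.

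Of the 36 symbols, 33 had a window; Ndrg1, Pgk1 and Slc2a3 had none in the table used. A hypoxia core of either form was present in 22 of the 33, or 66.7%, against 41.6% of all 33469 windows. ACGTG was found in 17 of the 33 (51.5% against 19.3% of all windows) and GCGTG in 15 (45.5% against 29.7%). TGGAAA was found in 7 of the 33 (21.2% against 22.7%). The windows of the members had a median GC content of 61.7% against 51.7% for all windows, and the part of base composition in these shares was not tested. The letters describe the windows and do not show that a factor binds there.

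**Figure D1:**
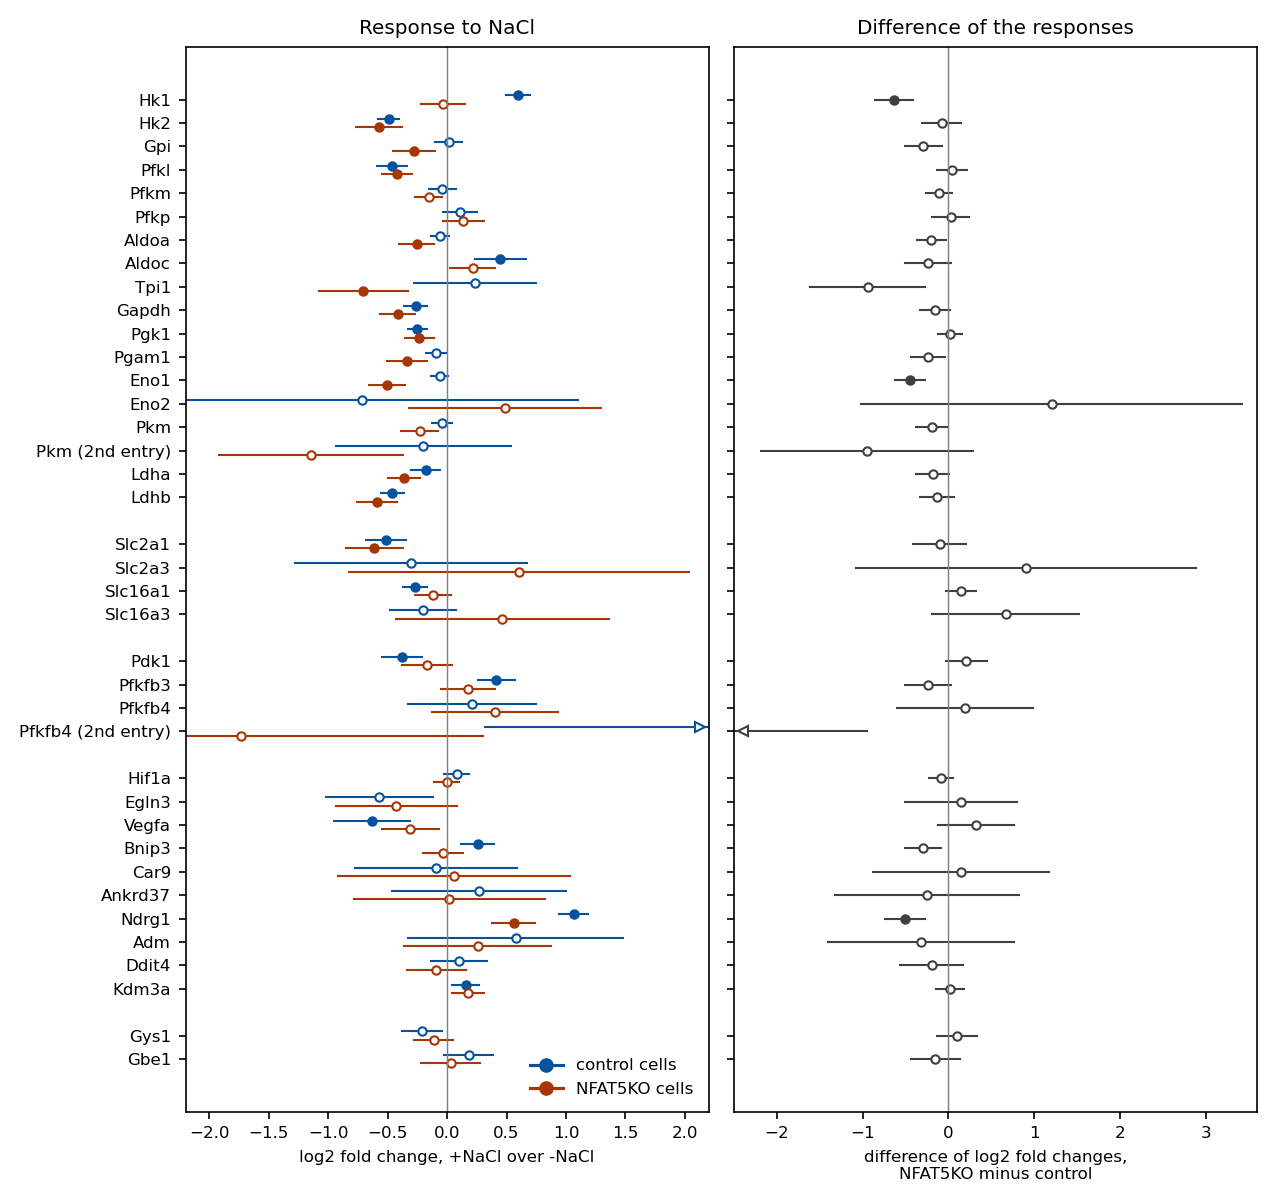
Response of the 38 entries to NaCl. Left, log2 fold change of +NaCl over -NaCl in control cells (blue) and NFAT5KO cells (brown); right, the difference between them, NFAT5KO minus control. Points are limma estimates from 3 libraries per group, bars are 95% intervals and filled points passed an adjusted p of 0.05; triangles stand for the second Pfkfb4 entry, whose values of 2.68 in control cells and -4.42 for the difference lie outside the axes, and some bars run past the axes. Hk1, Eno1 and Ndrg1 are the only filled points on the right.

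In control cells, 16 of the 38 entries passed the test between +NaCl and -NaCl, 6 higher and 10 lower with +NaCl. Over all genes tested, 26.0% passed, 13.3% higher and 12.7% lower. The increases were in Ndrg1, a stress and hypoxia responsive gene, in the isoenzymes Hk1 and Aldoc, in the flux regulator Pfkfb3, and in the HIF targets Bnip3 and Kdm3a. The decreases were in 6 glycolytic enzymes, in the glucose transporter Slc2a1 and the lactate transporter Slc16a1, in Pdk1, and in Vegfa. The median log2 fold change over the 38 entries was -0.061, against -0.002 over all genes. Among the 18 entries of glycolytic enzymes, 2 were higher, 6 were lower and 10 did not pass. Without the mean-variance trend, limma called 12 of the 38 entries, 4 higher and 8 lower, and Bnip3 (adjusted p = 0.0592), Vegfa (0.103), Kdm3a (0.107) and Ldha (0.179) were lost.

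The hexokinases, which trap glucose in the cell by phosphorylation, moved in opposite directions in control cells. Hk1, the broadly expressed isoenzyme, had normalized counts of 1200, 1195 and 1261 with -NaCl and 1849, 1798 and 1883 with +NaCl, a log2 fold change of 0.60 (SE 0.05, limma adjusted p = 6.41e-06). Hk2, the inducible isoenzyme of muscle and tumor cells, had 2549, 2619 and 2595 with -NaCl and 1833, 1863 and 1820 with +NaCl (-0.49, SE 0.04, adjusted p = 8.39e-06). For both genes the media did not overlap. Per kilobase, Hk1 was close to Hk2 in each control -NaCl library, with ratios of 0.953, 0.924 and 0.984, and above it with +NaCl, with ratios of 2.04, 1.96 and 2.10. An exact two-sided permutation test of these ratios gave p = 0.1, the smallest that 3 against 3 libraries allow. The hexokinase sum of both genes was 54.8 ± 0.343 with -NaCl and 60.0 ± 0.667 with +NaCl (RPKM, which is RPM divided by the listed gene length in kilobases; SD, n = 3), so the share of Hk1 in it went from 48.8% to 67.0%.

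Further down the pathway, the decreases in control cells were graded. Phosphofructokinase commits the sugar to glycolysis, and of its 3 genes only the liver type Pfkl was lower, with counts of 1939, 2030 and 1862 against 1497, 1419 and 1308 (-0.47, SE 0.06, adjusted p = 0.000183). The muscle type Pfkm (-0.04, 95% interval -0.15 to 0.07) and the platelet type Pfkp (0.11, -0.03 to 0.25) did not pass. Pgk1, which makes the first ATP of the pay-off phase, went from 7440, 7199 and 7331 to 6305, 6157 and 5999 (-0.25, SE 0.04, adjusted p = 0.000505). Gapdh went from 30680, 30470 and 27920 to 25410, 24720 and 24030 (-0.26, SE 0.04, adjusted p = 0.00127). Neither gene had overlapping media, although Gapdh shares its sequence with processed copies whose reads may not be separable: the copy RGD1565368 had a mean of 8022 with -NaCl and 6690 with +NaCl in control cells (-0.26, adjusted p = 0.00156), and the copy LOC685186 had 8433 and 7059 without passing (-0.27, adjusted p = 0.0975).

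Both lactate dehydrogenase subunits were lower with +NaCl. Ldhb, the heart type, went from 2225, 2256 and 2194 to 1651, 1633 and 1566 (-0.46, SE 0.04, adjusted p = 2.5e-05). Ldha, the muscle type and a classical HIF target, went from 11900, 11730 and 10200 to 10130, 9769 and 9892 (-0.18, SE 0.05, adjusted p = 0.0319). Each pair of groups was apart, Ldha by a narrow margin: the lowest -NaCl library stood just above the highest +NaCl library. The call of Ldha was lost when any 1 control library other than the replicate 3 of -NaCl was left out, with an adjusted p of 0.0593 to 0.13. The ratio of Ldha to Ldhb per kilobase was 4.24 ± 0.309 with -NaCl and 5.14 ± 0.140 with +NaCl (SD, n = 3; exact permutation p = 0.1, the smallest possible).

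Aldoc, the brain type of aldolase, rose from 316, 296 and 251 to 374, 406 and 395 (0.45, SE 0.10, adjusted p = 0.00588). Aldoa, the muscle type that made up 97.1% of the aldolase sum with -NaCl, did not pass, with 9032, 9262 and 9069 against 8920, 8710 and 8628 (-0.06, 95% interval -0.14 to 0.02). Other abundant enzymes also did not pass in control cells: Eno1 at -0.06 (-0.14 to 0.01), Pgam1 at -0.10 (-0.18 to -0.01) and the main Pkm entry at -0.04 (-0.12 to 0.04). Pgam1 passed without the control -NaCl library of replicate 3 (-0.11, adjusted p = 0.0409). Gpi, the isomerase of the second step, was at 0.01 (-0.10 to 0.13).

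**Figure D2:**
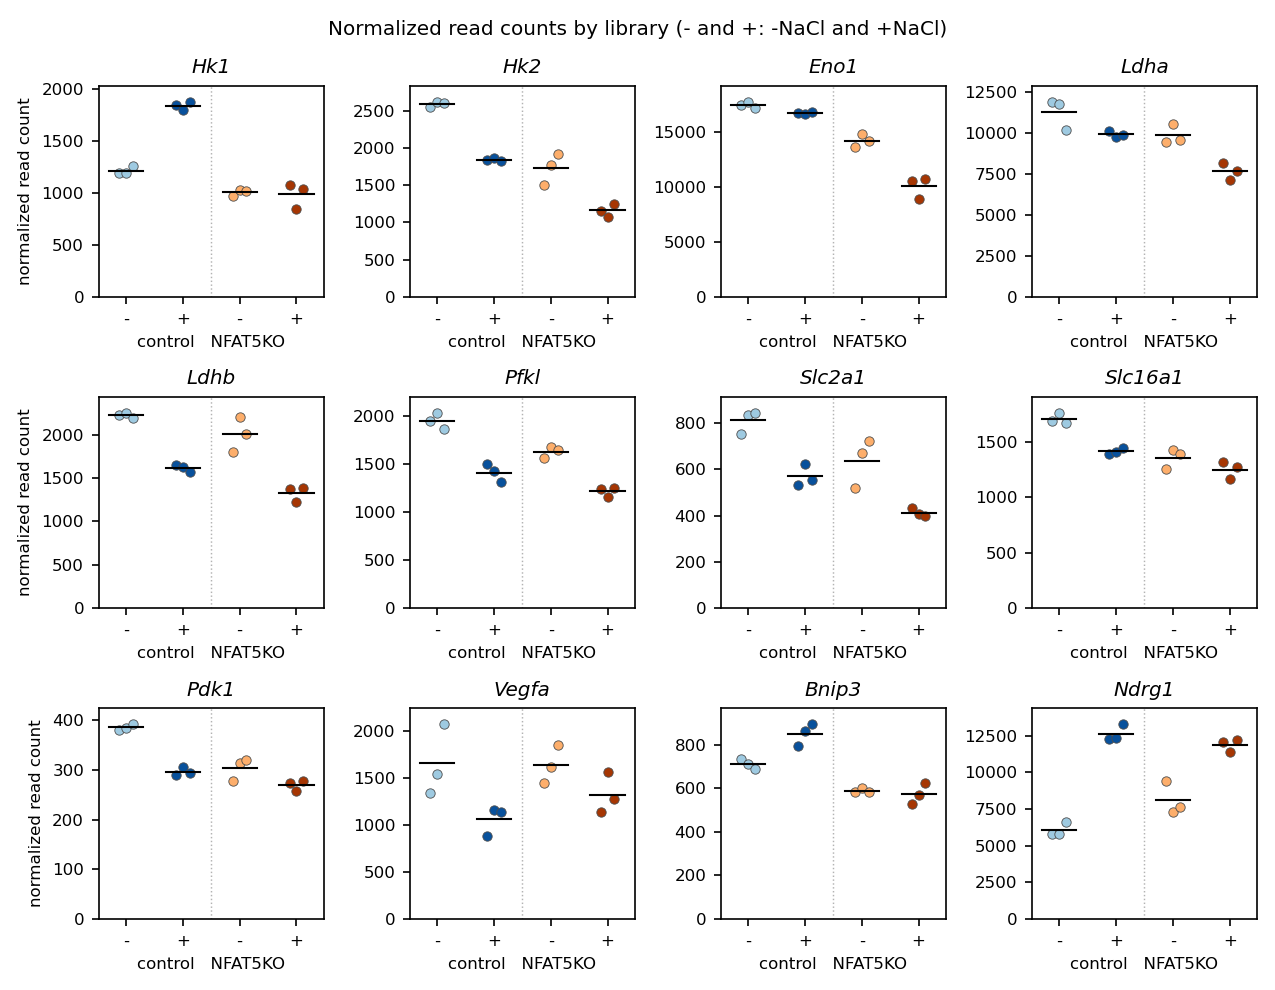
Normalized read counts of 12 members in each library. Each point is a library, horizontal lines are means of 3 libraries, and all axes start at 0; the dotted line separates control from NFAT5KO libraries, which were normalized in separate tables. In control cells Hk1 is higher and Hk2 lower with +NaCl, while in NFAT5KO cells the Hk1 points of both media overlap.

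Of the 4 transporters, 2 were lower in control cells, and of the 4 entries of flux regulators 1 was higher and 1 was lower. Slc2a1, which encodes the basal glucose transporter GLUT1, went from 753, 838 and 846 to 531, 623 and 555 (-0.51, SE 0.08, adjusted p = 0.000597). Slc16a1, which encodes the monocarboxylate transporter MCT1, went from 1687, 1764 and 1667 to 1389, 1411 and 1446 (-0.27, SE 0.05, adjusted p = 0.00142). For both transporters every +NaCl library was below every -NaCl library. Slc16a3, which encodes the lactate exporter MCT4, overlapped between the media (-0.20, 95% interval -0.48 to 0.07); without the control -NaCl library of replicate 3 it passed at -0.35 with an adjusted p of 0.033. Pdk1, a pyruvate dehydrogenase kinase, went from 379, 384 and 393 to 290, 305 and 293 (-0.38, SE 0.08, adjusted p = 0.00354). Pfkfb3, which makes the allosteric activator of phosphofructokinase, rose from 407, 397 and 399 to 566, 498 and 542 (0.42, SE 0.07, adjusted p = 0.00162).

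Of the 10 entries of the HIF pathway and its targets, 3 were higher in control cells, 1 was lower and 6 did not pass. Ndrg1 rose from 5777, 5790 and 6620 to 12260, 12360 and 13330 (log2 fold change 1.06, SE 0.06, adjusted p = 4.63e-07). Vegfa, the main angiogenic growth factor, fell from 1347, 1549 and 2083 to 881, 1160 and 1143 (-0.63, SE 0.14, adjusted p = 0.00779). The Ndrg1 and Vegfa groups were each apart. Bnip3, a mitophagy receptor, rose from 733, 710 and 690 to 794, 862 and 896 (0.26, SE 0.06, adjusted p = 0.0109), a call lost without the +NaCl library of replicate 3 (0.22, adjusted p = 0.0546). Kdm3a, a histone demethylase, was at 905, 964 and 941 against 1072, 1018 and 1039 (0.16, SE 0.05, adjusted p = 0.0479), and this call was lost without any 1 of the 6 control libraries (adjusted p 0.0633 to 0.149) and under 7 other settings, DESeq2, TMM scaling and the replicate block among them (adjusted p 0.0508 to 0.107). Hif1a, which encodes the oxygen-regulated subunit itself, did not pass at 0.08 (95% interval -0.02 to 0.19), with 3087 to 3362 normalized counts with -NaCl and 3310 to 3547 with +NaCl.

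The remaining HIF members were expressed at low to moderate levels and gave wide intervals. Egln3, an oxygen sensor that marks HIF for degradation, had 81.9 to 92.4 counts with -NaCl and 47.0 to 74.7 with +NaCl (-0.57, 95% interval -1.02 to -0.12, adjusted p = 0.0631), and passed without the +NaCl library of replicate 1 (-0.76, adjusted p = 0.0205). Ddit4, an inhibitor of mTORC1, was at 0.10 (-0.13 to 0.34) and passed without the -NaCl library of replicate 3 (0.25, adjusted p = 0.0157). Adm, which encodes the vasodilator adrenomedullin, Ankrd37 and Car9, a carbonic anhydrase of the cell surface, did not pass and had at most 48.4 counts in any control library. Gys1, the glycogen synthase of non-hepatic tissues, was at -0.21 (-0.38 to -0.04, adjusted p = 0.0633) and passed with equal library totals or the replicate block (adjusted p 0.023 to 0.0454), and Gbe1, the branching enzyme, was at 0.18 (-0.02 to 0.39, adjusted p = 0.188).

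In NFAT5KO cells, 13 of the 38 entries passed the test, 1 higher and 12 lower with +NaCl. Over all genes tested, 14.7% passed, 7.29% higher and 7.37% lower. Of the 18 entries of glycolytic enzymes, 11 were lower and 7 did not pass. Their median log2 fold change was -0.305, against -0.079 in control cells and 0.001 over all genes in NFAT5KO cells. Besides these enzymes, Slc2a1 was lower and Ndrg1 was higher. The 4 entries of flux regulators and the 2 glycogen genes did not pass, and their p was above 0.05 also before adjustment.

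Eno1, Pgam1, Aldoa, Gpi and the Tpi1 entry, which did not pass in control cells, were lower with +NaCl in NFAT5KO cells. Eno1, the main enolase, went from 13690, 14820 and 14230 to 10540, 8951 and 10710 (-0.50, SE 0.07, adjusted p = 0.00154). Pgam1 went from 8100, 9226 and 8365 to 6887, 6059 and 7470 (-0.33, SE 0.08, adjusted p = 0.0148). Aldoa went from 8088, 8692 and 8297 to 7206, 6313 and 7507 (-0.26, SE 0.07, adjusted p = 0.0238). In all 3 genes the media were apart. They were apart in control cells too, with smaller changes of -0.06 for Eno1, -0.10 for Pgam1 and -0.06 for Aldoa. Gpi went from 2010, 2050 and 2027 to 1757, 1444 and 1853 (-0.28, SE 0.08, adjusted p = 0.0406). The main Pkm entry, which encodes the pyruvate kinase of most tissues, was also lower in every +NaCl library, at 22220, 18290 and 21260 against 23950, 24040 and 24150, but missed the threshold (-0.23, SE 0.07, adjusted p = 0.0518) and passed without the +NaCl library of replicate 1 (-0.29, adjusted p = 0.0416). It also passed with equal library totals, DESeq2 or 1 spread shared by the 12 libraries (adjusted p 0.00513 to 0.0416).

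The Tpi1 entry, for triosephosphate isomerase, went from 184, 224 and 160 to 142, 98.9 and 108 in NFAT5KO cells (-0.70, SE 0.17, adjusted p = 0.0188). It held only a small part of the reads of this enzyme. A second entry described as triosephosphate isomerase-like, LOC100911515, had means of 2333 and 1081 with -NaCl and +NaCl in control cells (-1.01, adjusted p = 0.0142) and 1219 and 904 in NFAT5KO cells (-0.41, adjusted p = 0.254). The files do not show how reads were divided between them. Tpi1 also overlaps Spsb2 on the opposite strand, whose mean count was 14.2 in control and 2.66 in NFAT5KO cells.

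The decreases seen in control cells for Hk2, Pfkl, Gapdh, Pgk1, Ldha, Ldhb and Slc2a1 were also found in NFAT5KO cells. Hk2 went from 1499, 1776 and 1914 to 1160, 1069 and 1252 (-0.57, SE 0.09, adjusted p = 0.00252). Ldhb went from 1807, 2203 and 2006 to 1370, 1225 and 1384 (-0.59, SE 0.08, adjusted p = 0.00113). Ldha went from 9440, 10530 and 9591 to 8167, 7148 and 7693 (-0.36, SE 0.06, adjusted p = 0.00433). No pair of groups overlapped for these 3 genes. As in control cells, the ratio of Ldha to Ldhb per kilobase was higher with +NaCl, at 4.85 ± 0.171 against 4.13 ± 0.214 (SD, n = 3). An exact permutation test of this ratio in NFAT5KO cells gave p = 0.1, the smallest possible. Pfkl went from 1560, 1672 and 1642 to 1236, 1157 and 1249 (-0.42, SE 0.06, adjusted p = 0.00143), and Slc2a1 from 519, 671 and 724 to 431, 409 and 400 (-0.61, SE 0.11, adjusted p = 0.00491). Gapdh went from 24060, 27050 and 25130 to 19240, 17750 and 20170 (-0.42, SE 0.07, adjusted p = 0.00286), and Pgk1 from 6415, 6778 and 6280 to 5548, 5201 and 5830 (-0.23, SE 0.06, adjusted p = 0.019). Ndrg1 rose from 9415, 7335 and 7635 to 12090, 11400 and 12220 (0.56, SE 0.08, adjusted p = 0.00203).

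Other members called in control cells did not pass in NFAT5KO cells. Hk1 was at 976, 1032 and 1022 with -NaCl and 1084, 849 and 1041 with +NaCl, overlapping groups with a log2 fold change of -0.03 (95% interval -0.22 to 0.15). Bnip3 was at -0.04 (-0.21 to 0.13), Slc16a1 at -0.12 (-0.27 to 0.03), Pdk1 at -0.17 (-0.38 to 0.04) and Pfkfb3 at 0.18 (-0.05 to 0.40). Aldoc (0.22, adjusted p = 0.121), Kdm3a (0.18, adjusted p = 0.0849) and Vegfa (-0.31, adjusted p = 0.0849) had intervals on the same side of 0 as in control cells without passing. Vegfa did pass in NFAT5KO cells with DESeq2 or the replicate block (adjusted p 0.0274 to 0.0456), and without the -NaCl replicate 1 or the +NaCl replicate 2 (0.0212 to 0.0433). Kdm3a passed with 1 spread shared by the 12 libraries (0.0373). Hif1a was at -0.00, between -0.11 and 0.10.

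Several NFAT5KO calls depended on single libraries. Without the -NaCl library of replicate 2, 8 entries passed, 7 of them lower, and the count over all genes went from 2441 to 923. Without this library Aldoa, Gpi, Pgam1, Pgk1 and Tpi1 missed the threshold. Each of these calls but Pgam1 was also lost without another library: Aldoa without -NaCl replicate 3, Pgk1 without +NaCl replicate 1, Tpi1 without +NaCl replicate 2 or 3, and Gpi without any of the others but +NaCl replicate 3. The adjusted p was then 0.0782 to 0.105 for Aldoa, 0.058 to 0.13 for Gpi, 0.0762 for Pgam1, 0.0536 to 0.0896 for Pgk1 and 0.0599 to 0.0983 for Tpi1. A limma fit without the mean-variance trend left 0 of the 13 calls and 14 genes in all in NFAT5KO cells. At an unadjusted p under 0.05 that fit gave 2 entries higher and 14 lower, and the share of all genes was not counted. Of the 38 entries, edgeR called 12, without Gpi (adjusted p = 0.05), and DESeq2 called 15. The shares of all genes with edgeR and DESeq2 in NFAT5KO cells are not given here.

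The difference between the genotypes in the response to NaCl was tested in all 12 libraries. It passed for 3 of the 38 entries, Hk1, Eno1 and Ndrg1, each with an NFAT5KO minus control difference below 0. In NFAT5KO cells the rise of Hk1 and Ndrg1 was absent or smaller, and the fall of Eno1 was larger. Over all genes tested, 1.80% passed, 0.362% higher and 1.44% lower. At an unadjusted p under 0.05, 7 more entries were lower and none higher, and the share of all genes at this p was not counted. The median difference over the 38 entries was -0.142, and over all genes -0.001. For Hk1 the difference was -0.63 (SE 0.10, 95% interval -0.85 to -0.41, adjusted p = 0.0034): its counts rose with NaCl in control cells and overlapped in NFAT5KO cells. A low entry described as hexokinase 1-like, LOC100364027, with group means of 14.5 to 40.8 counts, did not pass (0.35, SE 0.48, adjusted p = 0.831). For Eno1 the difference was -0.44 (SE 0.08, -0.62 to -0.27, adjusted p = 0.0103): its counts fell in NFAT5KO cells and did not pass in control cells. An Eno1 copy on chromosome 4 under the symbol LOC685431 also passed (-0.71, SE 0.17, adjusted p = 0.0469). The copy on chromosome X under the same symbol did not (-0.38, SE 0.20, adjusted p = 0.444).

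For Ndrg1 the difference was -0.50 (SE 0.11, 95% interval -0.74 to -0.27, adjusted p = 0.031). The rise was larger in control cells, whose -NaCl level was the lower of the genotypes (123 against 154 RPKM). This call was lost without any 1 of 8 libraries: the control -NaCl replicates 1 and 2, the 3 control +NaCl replicates and the 3 NFAT5KO +NaCl replicates (-0.53 to -0.47, adjusted p 0.0507 to 0.0872). The limma fit without the mean-variance trend left 0 of the 3 calls, with an adjusted p of 0.0583 for Hk1, 0.0993 for Eno1 and 0.174 for Ndrg1. At an unadjusted p under 0.05 that fit gave 6 entries lower and 1 higher, and the share of all genes was not counted.

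For the members that fell in both genotypes the difference did not pass, and its intervals bound its size. It was 0.02 for Pgk1 (95% interval -0.12 to 0.16), 0.05 for Pfkl (-0.13 to 0.22), -0.08 for Hk2 (-0.30 to 0.14) and -0.10 for Slc2a1 (-0.41 to 0.21). It was -0.13 for Ldhb (-0.33 to 0.06), -0.15 for Gapdh (-0.33 to 0.03) and -0.18 for Ldha (-0.37 to 0.01). Besides the 3 called members, 7 entries had intervals below 0 but missed the threshold: -4.42 for the second Pfkfb4 entry (adjusted p = 0.23), -0.19 for the main Pkm entry (adjusted p = 0.359), -0.20 for Aldoa (adjusted p = 0.271), -0.24 for Pgam1 (adjusted p = 0.261), -0.29 for Gpi (adjusted p = 0.213), -0.30 for Bnip3 (adjusted p = 0.164) and -0.94 for the Tpi1 entry (adjusted p = 0.178). The more abundant LOC100911515 entry of triosephosphate isomerase lay on the other side of 0, at 0.60 (SE 0.40, adjusted p = 0.574). Of 8 osteoblast markers, 2 also passed the difference and both were lower.

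**Figure D3:**
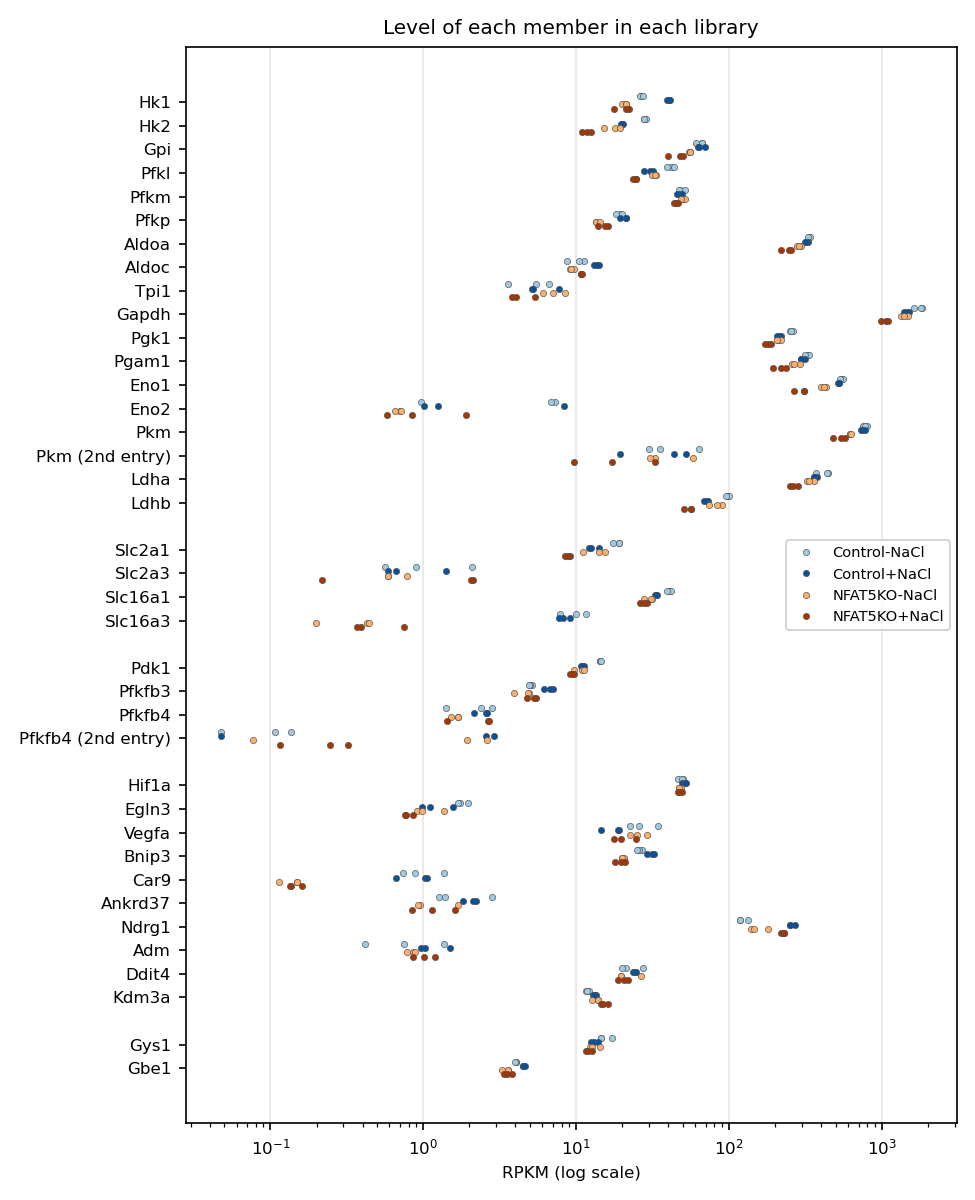
Level of each entry in every library, as RPKM (RPM per kilobase of the listed gene length), on a log scale. Each point is a library, colored by group. Gapdh, Pkm and Eno1 are the most abundant entries, and Slc16a3 and Car9 of NFAT5KO cells lie well to the left of control cells.

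The levels of the members spanned a wide range. Gapdh was highest, at means of 1045 to 1744 RPKM in the 4 groups, followed by Pkm (529 to 770), Eno1 (293 to 544) and Ldha (264 to 415). Aldoa, Pgam1, Pgk1 and Ndrg1 formed the next tier, at 123 to 333. Hexokinases, phosphofructokinases and the main transporters were at 8.77 to 49.9, apart from Slc16a3, which is described below. Adm, Egln3, Car9, Ankrd37, Slc2a3 and both Pfkfb4 entries were below 2.5 in every group mean.

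The level in NFAT5KO cells was below that in control cells for most members. With -NaCl, 24 of the 38 entries were lower in every NFAT5KO library than in any control library and 2 were higher, where 23.7% and 16.1% of all genes did so. With +NaCl, 26 were lower and 1 was higher, where 25.6% and 19.0% of all genes did so. Of the entries, 22 were lower with both media, against 15.4% of all genes. The median ratio of NFAT5KO to control over the 38 entries was 0.821 with -NaCl and 0.744 with +NaCl, against 0.970 and 0.975 over all genes. With TMM factors in place of equal totals, 22 entries were lower with -NaCl and 26 with +NaCl, where 20.7% and 23.5% of all genes did so. Gys1 and Pfkfb3 were the entries that changed from lower to overlapping with -NaCl. Without the NFAT5KO -NaCl library of replicate 1, 24 were lower and 3 higher with -NaCl. Groups of fewer libraries are apart more easily, and the share of all genes was not counted for this setting. These 2 counts therefore do not show whether the result is stable.

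Slc16a3 had the lowest ratio that held in both media. Its level was 9.94, 11.5 and 7.82 RPKM in control cells with -NaCl and 0.429, 0.200 and 0.439 in NFAT5KO cells, a ratio of 0.0365. With +NaCl it was 9.09, 8.16 and 7.74 against 0.392, 0.741 and 0.366, a ratio of 0.0600. In control cells Slc16a3 thus made up 19.4% of the lactate transporter sum of Slc16a1 and Slc16a3 with -NaCl, and in NFAT5KO cells 1.19%. Slc16a1 was also lower in NFAT5KO cells, at a ratio of 0.742 with -NaCl and 0.829 with +NaCl.

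Car9 was the HIF target with the lowest ratio. It was at 0.734, 0.886 and 1.36 in control cells with -NaCl and 0.149, 0.148 and 0.114 in NFAT5KO cells (ratio 0.138), and at 1.03, 1.05 and 0.663 against 0.136, 0.160 and 0.134 with +NaCl (ratio 0.157). The NFAT5KO levels of Car9 rested on only 7, 5 and 5 reads with -NaCl and 4, 5 and 6 reads with +NaCl. The other HIF targets had ratios closer to 1. Bnip3 was at 0.773 and 0.634 and Egln3 at 0.607 and 0.652 with -NaCl and +NaCl, and all their groups were apart. Kdm3a was the only member higher in NFAT5KO cells with both media, at ratios of 1.14 and 1.16. Ndrg1 was higher with -NaCl (1.25) and lower with +NaCl (0.884), and Hif1a overlapped with both media (0.982 and 0.932).

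**Figure D4:**
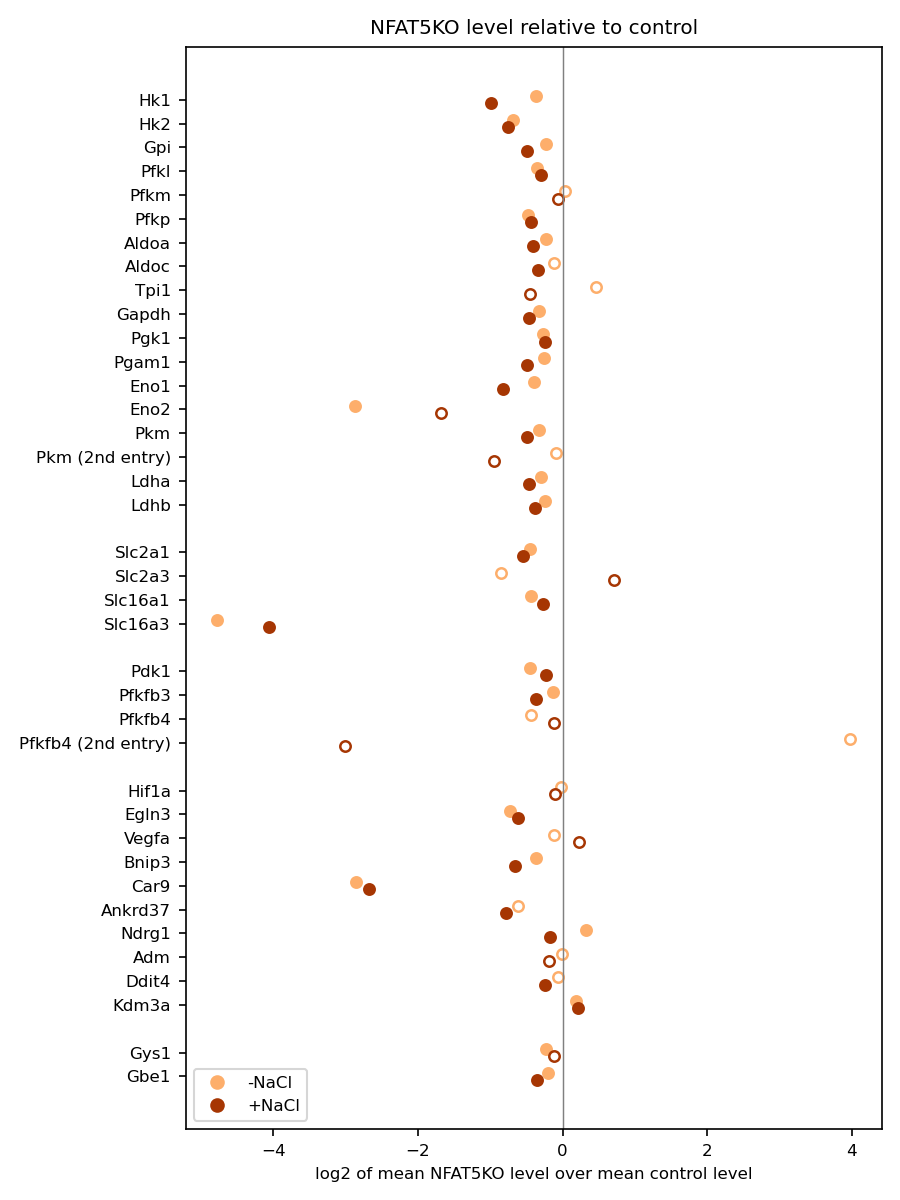
Mean NFAT5KO level over mean control level of each entry on a log2 scale, with -NaCl (light) and +NaCl (dark), from 3 libraries per group scaled to equal totals. Filled points are entries whose NFAT5KO and control libraries did not overlap. Most filled points lie left of 0, with Slc16a3 at ratios of 0.0365 and 0.0600, and Kdm3a lies right of 0 with both media.

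Among the enzymes, 14 of 18 entries were lower in NFAT5KO cells with -NaCl and 14 with +NaCl, and the other 4 overlapped each time. Hk2 was at ratios of 0.624 and 0.592, and Hk1 at 0.774 and 0.505, as the control level of Hk1 rose from 26.7 to 40.2 while the NFAT5KO level stayed at 20.7 and 20.3. Eno1 was at 0.760 and 0.564. The hexokinase sum was 38.2 ± 2.71 and 32.1 ± 3.03 in NFAT5KO cells with -NaCl and +NaCl (SD, n = 3), below the 54.8 and 60.0 of control cells. The share of Hk1 in it rose from 54.3% to 63.3% in NFAT5KO cells, against 48.8% to 67.0% in control cells. In NFAT5KO cells the ratio of Hk1 to Hk2 per kilobase was 1.19 ± 0.12 with -NaCl and 1.73 ± 0.147 with +NaCl, without overlap. An exact permutation test of this ratio gave p = 0.1, the smallest possible. Hk2 was lower with +NaCl in these cells, while Hk1 overlapped between the media. Pfkm was the exception among the abundant enzymes, with overlapping groups at ratios of 1.02 and 0.954, and made up 52.0% of the phosphofructokinase sum in NFAT5KO cells with -NaCl against 44.5% in control cells.

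A few entries varied more between replicates than between groups. Eno2, the neuronal enolase, had counts of 276, 260 and 37.2 in control cells with -NaCl and 38.5, 320 and 47.9 with +NaCl. Slc2a3, which encodes GLUT3, had 42.3, 56.0 and 41.8 with -NaCl and 151, 15.5 and 148 with +NaCl in NFAT5KO cells; without the +NaCl library of replicate 2 it passed there (1.67, adjusted p = 0.00373). The second Pfkfb4 entry had 2.64, 2.07 and 0.931 against 56.6, 50.3 and 0.940 in control cells and 1.60, 40.3 and 53.8 against 5.10, 2.38 and 6.78 in NFAT5KO cells. It did not pass any of the 3 limma tests, and these calls turned on single libraries and on the tool. In control cells it passed without the +NaCl library of replicate 3 (4.29, adjusted p = 0.000499), and with edgeR, DESeq2 or a replicate block (adjusted p 0.0143 to 0.033). In NFAT5KO cells it passed without the -NaCl library of replicate 1 (-3.13, adjusted p = 0.00204). The difference between genotypes passed with edgeR (adjusted p = 0.0413) and without the control +NaCl library of replicate 3 (adjusted p = 0.0353). The main Pfkfb4 entry, with 48.7 to 99.6 counts in all libraries, showed no such steps. The second Pkm entry ranged from 359 to 2222 counts and was at the threshold in NFAT5KO cells (-1.15, adjusted p = 0.05). It passed without the +NaCl library of replicate 3 (-1.60, adjusted p = 0.0104), and with no filter on low values or with equal library totals (adjusted p 0.0445 to 0.0492).

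Genes that work beside the members were taken from separate lists. Over all genes tested, 26.0% passed in control cells (13.3% higher, 12.7% lower) and 14.7% in NFAT5KO cells (7.29% higher, 7.37% lower). For the difference, 1.80% of all genes passed. These shares stand beside the counts of every list below, and no set test was run. Of 23 other glycolysis genes tested in control cells, 4 were higher and 1 was lower with +NaCl, and in NFAT5KO cells 1 was higher. Bpgm, which makes 2,3-bisphosphoglycerate, rose in both genotypes (0.48, adjusted p = 0.00511, and 0.49, adjusted p = 0.00358). Pdhb, a subunit of pyruvate dehydrogenase, rose in control cells (0.35, adjusted p = 0.000841), as did the pyruvate dehydrogenase kinase Pdk3 (0.30, adjusted p = 0.00783) and Galm, which interconverts the anomers of galactose and glucose (0.26, adjusted p = 0.0049). For Pdk3 (-0.42, adjusted p = 0.0469) and Galm (-0.38, adjusted p = 0.0126) the response was lower in NFAT5KO than in control cells.

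Of 10 other HIF pathway genes, 2 were higher and 2 lower with +NaCl in control cells, and of 9 tested in NFAT5KO cells 2 were higher and 1 lower. Cited2, which competes with HIF for its coactivators, rose in both (0.46, adjusted p = 8.73e-05, and 0.35, adjusted p = 0.0224), and so did the oxygen sensor Egln2 (0.17, adjusted p = 0.0448, and 0.27, adjusted p = 0.0176). Vhl, the ubiquitin ligase subunit that removes HIF, fell in both (-0.16, adjusted p = 0.0192, and -0.27, adjusted p = 0.0155). Siah2, a ligase acting on the oxygen sensors, fell in control cells (-0.64, adjusted p = 0.00228).

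Of 37 other hypoxia targets in control cells, 7 were higher and 8 lower, and of 35 in NFAT5KO cells 5 were higher and 5 lower. The collagen lysyl hydroxylase Plod2 rose from a mean of 2766 to 5443 in control cells (0.98, adjusted p = 2.1e-07) and from 2580 to 3138 in NFAT5KO cells (0.28, adjusted p = 0.00704), and the difference passed (-0.69, SE 0.07, adjusted p = 6.16e-05). Its relative Plod1 fell in both, more so in NFAT5KO cells (difference -0.34, adjusted p = 0.0321). Bhlhe40, a clock-linked repressor, fell in control cells (-0.34, adjusted p = 0.0274) and rose in NFAT5KO cells (0.30, adjusted p = 0.0346), with a difference of 0.65 (adjusted p = 0.0163). Insig2 and Mxi1 rose and Egfr fell in both genotypes, at 0.81, 0.72 and -0.68 in control cells and 0.47, 0.43 and -0.32 in NFAT5KO cells.

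Of 18 other glycogen genes in control cells, 4 were higher and 4 lower, and in NFAT5KO cells 4 were lower. Gyg1, the glycogenin primer, Ugp2, which makes UDP-glucose, and the phosphoglucomutase Pgm2 fell in both genotypes (-0.38, -0.25 and -0.29 in control cells). Ppp1r3b, which directs protein phosphatase 1 to glycogen, rose in control cells (0.78, adjusted p = 0.000494) and did not pass in NFAT5KO cells, and its difference passed (-0.65, adjusted p = 0.0241). Of 5 genes of the pentose phosphate pathway 2 were lower in control cells, Tkt (-0.32, adjusted p = 0.000108) and Rpe (-0.22, adjusted p = 0.0231), and 1 in NFAT5KO cells. Of 15 genes of the tricarboxylic acid cycle 2 were higher and 2 lower in control cells: Sdha (0.18) and Ogdh (0.18) rose and Fh (-0.35) and Mdh1 (-0.12) fell, and Fh and Mdh1 fell in NFAT5KO cells as well (-0.30 and -0.22).

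Set against the promoter letters, of the 6 members that were lower in both genotypes and had a window, 5 held a hypoxia core and Hk2 did not, where 66.7% of all member windows and 41.6% of all windows held one. Gapdh held 3 matches, Pfkl 2 and Ldhb 1. TGGAAA stood in the windows of Hk2 and Ldhb, 2 of these 6, against 21.2% of the member windows and 22.7% of all windows. With 6 windows these counts are a description only.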

How the data were processed

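The signal deposited by the authors was a table of normalized read counts for each genotype. Within a table, the reads of every library had been divided by a factor of its own. The libraries were made with a NEBNext Ultra kit from poly-A RNA. The aligner, the counting tool and the strandedness are not given in the sources used here, and the labels name a mouse genome build although the gene identifiers are those of rat. The names of the 2 tables give the opposite genotype to their columns. Columns were assigned by their own labels. The 24 columns without a matching sample, and the authors' fold changes and p values, which belong to +NaCl against -NaCl within a genotype, were not used. Dividing each library by its smallest step gave whole reads for 100% of the values within 0.1 read, and the listed gene length was used for levels per kilobase.

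Tests were limma 3.58.1 (R 4.3.3) with a mean-variance trend on log2(normalized count + 1), for genes with a mean of at least 1, with Benjamini-Hochberg adjustment over 17108 genes in control cells, 16657 in NFAT5KO cells and 16849 for the difference of the responses, at a threshold of 0.05. Fold changes of low genes are understated on this scale. Libraries of a group were replicates by their labels. The tests set the difference of group means against the spread between them, moderated by a trend fitted over all genes. All members are named; from each pathway list, up to 4 called genes with the smallest p in control cells or for the difference are named. Markers of the osteoblast and of chondrocyte, adipocyte, leukocyte, endothelial and muscle lineages were counted. The members, lists and tests were chosen with earlier results of these data known. The scripts were tested on simulated data. Results were recomputed with pseudocounts of 0.5 and 5, with no filter or a filter at a mean of 10, with equal totals, TMM, no trend, the quasi-likelihood test of edgeR 4.0.16 or DESeq2 1.42.0 applied to recovered reads, a replicate block, 1 spread for the 12 libraries, and leaving out each library. Promoters were matched by symbol to RefSeq windows on GRCr8.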

Additional observations from a re-analysis of the deposited data

Results flagged for a closer look

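For 3 members the response to NaCl differed between the genotypes by a test of the difference itself in limma over 12 libraries. The NFAT5KO minus control difference on the log2 scale was -0.6319 for Hk1, -0.4427 for Eno1 and -0.5044 for Ndrg1. Hk1 was higher with +NaCl in 3 of 3 control libraries and overlapped between the media in NFAT5KO cells. Eno1 was lower in 3 of 3 +NaCl libraries of each genotype, at -0.06 in control and -0.50 in NFAT5KO cells. Ndrg1 was higher in 3 of 3 +NaCl libraries of each genotype.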

How the results depend on the processing

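No result changed direction with a call on both sides. Without the mean-variance trend, 2763 genes passed in control cells, 14 in NFAT5KO cells and 103 for the difference, and the members called in NFAT5KO cells numbered 0 (0 higher, 0 lower), with 2 higher and 14 lower at an unadjusted p under 0.05; for the difference 0 members passed (0 lower), with 1 higher and 6 lower at an unadjusted p under 0.05. Shares of all genes at an unadjusted p under 0.05 were not counted. DESeq2 called 484 genes for the difference. With 1 spread for the 12 libraries, 2 members were higher in NFAT5KO cells. The cause of these shifts was not tested. Leaving out 1 library at a time gave 8 to 14 members called in NFAT5KO cells, 1 to 2 higher and 7 to 13 lower, with 923 to 2706 genes in all, and 159 to 256 genes for the difference. The lowest counts came without the NFAT5KO -NaCl replicate 2 and, for the difference over all genes, without the control +NaCl replicate 3. The NFAT5KO -NaCl replicate 1 was left out of the levels as an alternative chosen after seeing the data.

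With the replicate number as a block, 17 members passed in control cells, 14 in NFAT5KO cells and 3 for the difference. Correlations of same-numbered deviations were 0.145, 0.006 and -0.098 in control and 0.012, -0.085 and 0.053 in NFAT5KO cells, so the numbers were not treated as pairs.

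Low members such as Adm, Ankrd37 and Car9 are limited by depth. Reads shared among copies of Gapdh, Eno1, Tpi1, Pkm and Hk1 cannot be separated here.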
